A study of Mus musculus with 2 samples.

Results

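Gene deserts of the mouse cortex held 12498 peaks of accessible chromatin in replicate 1 and 13597 in replicate 2, out of 146581 and 151350 peaks on chromosomes 1 to 19. A peak was taken when its centre lay over 200 kb from every start of a protein-coding transcript and outside every protein-coding gene (GENCODE M21 models, mm10). The assay was DNase-seq: nuclei are treated with DNase I, an enzyme that cuts where chromatin is open. Both libraries were made from the left cerebral cortex of male B6CASTF1/J mice, F1 offspring of C57BL/6J and CAST/EiJ parents, at 14 days of age. The design held 1 group with 2 biological replicates and no treatment or second genotype. The labels name 3 males for replicate 1 but only 1 for replicate 2, and both carry the same donor identifier, so the spread between libraries may not be a spread between litters or stocks. As a check of the tissue label, 10 of 10 cortical marker genes and 0 of 10 markers of other tissues had a promoter peak in both libraries. Of the latter, Alb and Krt5 had one in replicate 1 only.

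Gene deserts are long stretches without protein-coding genes. Some hold enhancers, short regulatory elements that act on promoters far away along the chromosome, and in the brain genes of development and cell adhesion often border such stretches. A distal element opens where transcription factors displace nucleosomes, and the bound proteins shield a few bases from the nuclease, which leaves a footprint. The protein CTCF, which bounds chromatin loops, leaves some of the clearest footprints. A nearest gene, as used below, is the gene with the closest start and need not be the target of an element.

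The following 5 sequences are among the strongest desert sites found in both libraries and show these sites at base level. They are not typical desert peaks. Their signal, the number the authors gave each peak, was at least 5.79, against desert medians of 0.327 and 0.375. The sites near Pcmtd1 and Ntrk2 lie 92 and 2 bp from the start of a long intergenic RNA. All 5 are printed as the plus strand of the reference (GRCm38, the assembly named mm10), written 5′ to 3′, and do not show the CAST/EiJ allele. Capitals mark the bases that lay in a deposited footprint of both libraries.
Site near Pcmtd1, chr1:7397861-7398060: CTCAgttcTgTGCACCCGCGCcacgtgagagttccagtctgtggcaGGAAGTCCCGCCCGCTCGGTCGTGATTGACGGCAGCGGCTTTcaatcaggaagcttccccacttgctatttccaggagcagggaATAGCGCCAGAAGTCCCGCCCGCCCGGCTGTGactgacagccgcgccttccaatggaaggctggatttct
Site near Myt1l, chr12:29291041-29291340: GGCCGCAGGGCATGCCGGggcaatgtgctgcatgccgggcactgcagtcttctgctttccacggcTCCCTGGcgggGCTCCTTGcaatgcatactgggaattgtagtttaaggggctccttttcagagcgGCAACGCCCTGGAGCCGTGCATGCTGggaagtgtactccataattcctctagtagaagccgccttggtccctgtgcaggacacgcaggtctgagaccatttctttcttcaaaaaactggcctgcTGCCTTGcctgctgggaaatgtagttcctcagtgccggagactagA
Site near Ntrk2, chr13:59145781-59145960: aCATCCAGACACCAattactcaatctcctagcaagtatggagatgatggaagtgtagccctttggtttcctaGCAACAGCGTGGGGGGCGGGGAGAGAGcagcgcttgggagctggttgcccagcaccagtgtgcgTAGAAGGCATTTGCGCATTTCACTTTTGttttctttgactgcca
Site near Slc4a3, chr1:75925821-75926020: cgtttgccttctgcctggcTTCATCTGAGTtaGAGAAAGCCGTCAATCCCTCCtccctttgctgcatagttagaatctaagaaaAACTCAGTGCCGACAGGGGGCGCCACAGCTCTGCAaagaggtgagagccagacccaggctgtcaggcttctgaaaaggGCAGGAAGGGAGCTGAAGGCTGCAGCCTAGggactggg
Site near Reep3, chr10:66814641-66814840: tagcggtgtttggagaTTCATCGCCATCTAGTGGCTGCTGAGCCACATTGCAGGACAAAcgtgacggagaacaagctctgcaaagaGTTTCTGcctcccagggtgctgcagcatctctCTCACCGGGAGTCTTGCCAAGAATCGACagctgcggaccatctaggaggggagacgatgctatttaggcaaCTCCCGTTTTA

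At 4 of these 5 sites, which were chosen among the strongest, most footprinted bases were the same in the separate libraries. At the Pcmtd1 site, 90 of its 200 bases were footprinted in both libraries, which was 89.1% of the bases footprinted in either. The share was 84.0% at the Ntrk2 site, 83.6% at the Slc4a3 site and 78.1% at the Reep3 site. It was lowest, 54.9%, in the printed window of the Myt1l site, where footprints covered 89 and 100 bases. Consensus words, the letters that a family of transcription factors is known to prefer, fell inside these footprints. The Reep3 site held the CTCF word at bases 23 to 34, counted from 1 at the first printed base. The Ntrk2 site held the SP/KLF word GGGGCGGGG at bases 85 to 93, and the Slc4a3 site held the proneural E-box CAGATG, in reverse, at bases 22 to 27. Each of these words was at least 50% covered by footprints in both libraries. The Pcmtd1 and Myt1l windows held none of the 22 words searched. Only full matches were counted, so sequences close to a word are not named here.

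Accessible sites were sparse and weak in gene deserts. Desert peaks made up 8.53% and 8.98% of all peaks (8.76% ± 0.323, SD, n = 2 libraries), while the deserts took 21.2% of the known bases of these chromosomes, 509 of 2396 Mb. That is 24.6 and 26.7 peaks per Mb (25.6 ± 1.53). Peaks outside genes but 10 to 200 kb from a start stood at 50.7 and 52.9 per Mb, and peaks inside protein-coding genes over 200 kb from any start at 35.8 and 39.7 per Mb. The difference of the deserts from the nearer intergenic DNA was −26.2 peaks per Mb in each library and that from the distant gene interiors −11.2 and −13.0, more than the spread between the libraries. Desert peaks had median signals of 0.327 and 0.375, where signal is the number the authors gave each peak, whose definition is not given in the sources used here. The nearer intergenic peaks had 0.488 and 0.584 and the distant peaks inside genes 0.403 and 0.485. The desert median was the lowest in both libraries, with differences of −0.161 and −0.209 from the former class and of −0.0758 and −0.111 from the latter. The central 80% of desert peaks ran from 0.180 to 0.886 in replicate 1 and from 0.190 to 1.15 in replicate 2, and the highest reached 20.9 and 21.4. Only 179 and 242 of them, 1.43% and 1.78%, belonged to the strongest 10% of all peaks. With 2 libraries an exact two-sided sign-flip test cannot go below p = 0.5, so class differences here are given as values in each library and not as calls. Peaks of a library are not replicates, and the Wilson 95% intervals below cover counting error only.

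Depth is not given in the sources used here. Low signals were whole multiples of 0.00474 in replicate 1 and of 0.00614 in replicate 2, and the median desert peak stood at 69 and 61 such steps. If a step is 1 read, the counting error of a typical desert peak is 12% and 12.8%.

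Density and signal kept falling inside the deserts as the distance from genes grew. Between 200 and 500 kb from the nearest start there were 31.1 and 33.5 peaks per Mb with a median signal of 0.350 and 0.412. Between 500 and 1000 kb there were 19.1 and 20.7 per Mb with 0.279 and 0.319. Beyond 1000 kb, 725 and 896 peaks remained, 10.2 and 12.6 per Mb, with a median of 0.227 and 0.246, and the most distant lay 2676 kb and 2658 kb away. Within 1 kb of a start, in comparison, there were 565 and 568 peaks per Mb with a median of 2.61 and 2.87. At the limit that defines a desert the median signal was about level. The 1252 and 1383 peaks 180 to 200 kb from a start had a median of 0.384 and 0.430, and the 1085 and 1193 peaks 200 to 220 kb away had 0.384 and 0.448.

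**Figure D1:**
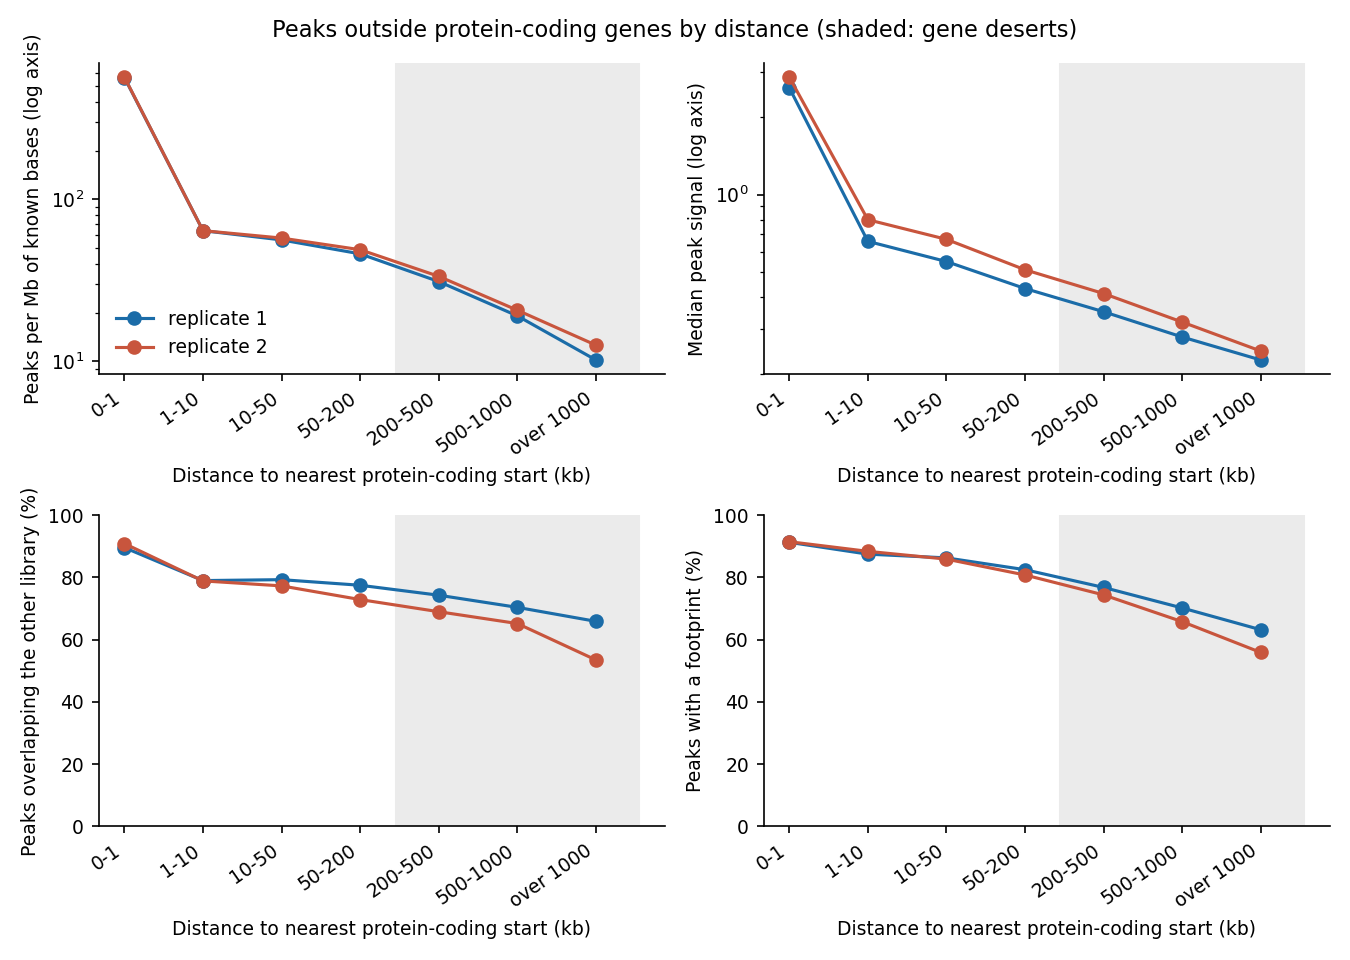
Peaks outside protein-coding genes in 7 bins of distance to the nearest protein-coding start (x axis, kb), with peaks per Mb of known bases and median signal on log axes and, in percent, the peaks that overlap the other library and those with a footprint; points are the libraries and shading marks the desert bins. Beyond 1000 kb the values are the lowest of each panel, with 10.2 and 12.6 peaks per Mb.

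Most desert peaks were found again in the other library. In replicate 1, 72.9% of them (Wilson 95% interval 72.1 to 73.7) had at least 1 bp in common with a replicate 2 peak, and 67.1% (66.3 to 67.9) did so in the other direction, a mean of 70.0% ± 4.11 (SD, n = 2). The nearer intergenic peaks were shared at 78.4% and 75.1%, and the distant peaks inside genes at 74.6% and 67.2%. The difference of the desert peaks from the former was −5.50 and −7.99 percentage points, and that from the latter, −1.73 and −0.108, was within the spread between libraries. In the authors' stricter peak list the difference from the nearer class was small in replicate 1 (81.7% against 82.0%) and larger in replicate 2 (68.7% against 76.9%). Sharing also fell with distance, to 65.9% and 53.5% beyond 1000 kb.

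Within classes of like signal the order was the opposite. When all peaks of a library were cut by signal into 10 classes of equal number, 33.7% and 33.4% of the desert peaks were in class 1, the weakest, against 13.2% and 12.9% of the nearer intergenic peaks. Within that class 45.5% of desert peaks of replicate 1 were shared and 37.0% of nearer ones, and in replicate 2 36.6% and 34.6%. In class 3 the desert peaks were shared at 83.2% against 68.6% in replicate 1 and at 74.4% against 62.6% in replicate 2. In class 5 the values were 94.5% against 86.3%, and 92.5% against 81.8%. In the lower 7 classes the desert share was the higher one in both libraries, and above that both kinds of peak were at or over 98.7%. The same order of the lower 7 classes held when an overlap of 50% of each peak was required and when peaks in repeated sequence were left out, settings chosen after the values were seen. Within class 1 the desert peaks were slightly lower, with a median of 0.204 against 0.218 in replicate 1 and 0.221 against 0.240 in replicate 2.

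**Figure D2:**
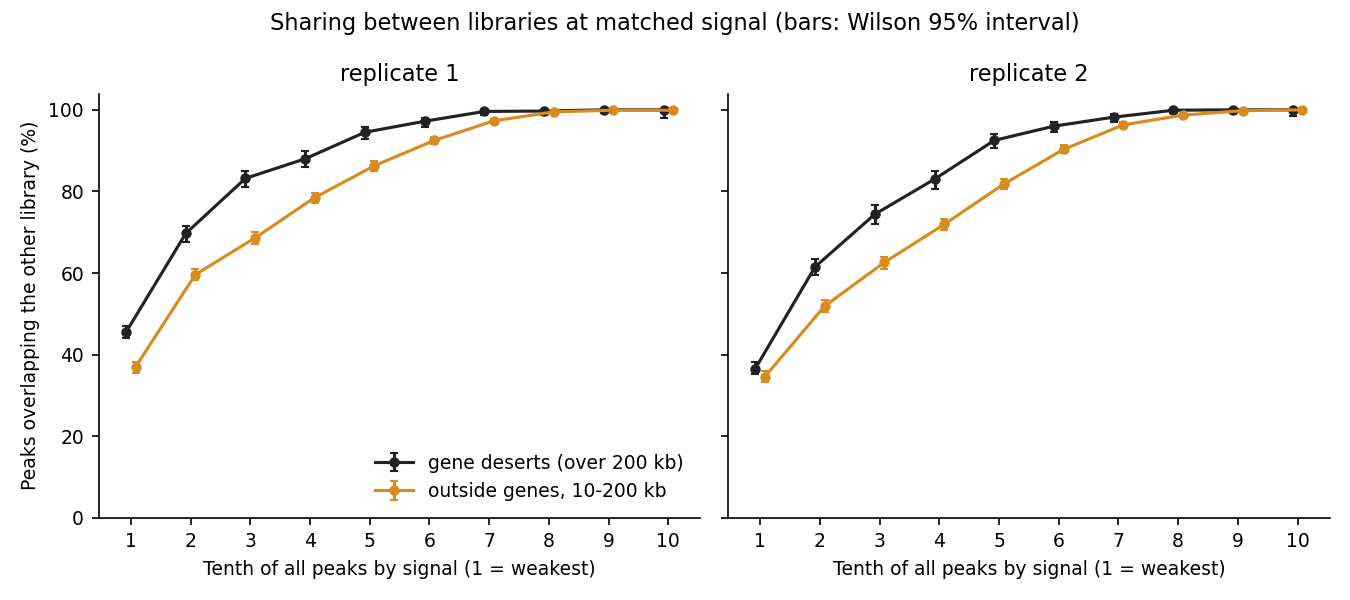
Percent of peaks that overlap a peak of the other library (y axis) in 10 classes of equal number by signal (x axis, 1 is the weakest), for desert peaks and for peaks outside genes 10 to 200 kb from a start, with Wilson 95% intervals. In class 3 desert peaks stand at 83.2% and 74.4% and the nearer peaks at 68.6% and 62.6%.

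Footprints were found in 74.4% (73.7 to 75.2) and 71.2% (70.4 to 71.9) of the desert peaks, a mean of 72.8% ± 2.29 (SD, n = 2). The shares were 84.4% and 83.4% in the nearer intergenic class and 81.3% and 78.5% in the distant peaks inside genes, so the desert peaks differed by −9.99 and −12.2 points from the former and by −6.85 and −7.33 points from the latter. In the stricter list the shares were closer: 92.1% and 91.3% in deserts, 93.6% and 94.2% in the nearer class and 92.6% and 93.7% in distant peaks inside genes. A desert peak held 1.63 and 1.56 footprints on average, or 9.60 and 9.39 per kb of peak, compared with 11.6 and 11.5 per kb in the nearer class. Within classes of like signal the difference was small or turned. In signal class 1, 46.2% of desert peaks and 45.5% of nearer peaks of replicate 1 had a footprint, and 36.6% and 39.8% in replicate 2. In class 3 the values were 88.8% and 83.1%, and 84.1% and 80.9%.

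Peaks listed in only 1 library were low. Replicate 1 held 3386 such desert peaks with a median of 0.223, while its shared ones had 0.398, and replicate 2 held 4474 with 0.252 against 0.498. The nearer intergenic class had the same order, with 0.294 against 0.592 and 0.344 against 0.743. Of the desert peaks listed in only 1 library, 11.1% (10.1 to 12.2) and 11.8% (10.9 to 12.8) overlapped an interval whose cleavage rate passed the authors' false discovery rate limit of 0.05 in the other library. In the nearer class 12.1% and 14.1% did so. The strongest desert peak listed in only replicate 1, at chr9:113177441-113177700 near Pdcd6ip, had a signal of 0.966. It lay 60 bp from a replicate 2 peak with a signal of 4.02, which belongs to a shared site. The next had 0.919 near Tsc22d2 and 0.767 near Cited2. In replicate 2 the strongest had 1.14 near Rpl38, 1.06 near Lnpk and 0.989 near Sox9. The peaks near Pdcd6ip, Tsc22d2 and Lnpk overlapped such an interval of the other library, and those near Pdcd6ip, Cited2 and Lnpk lay 60, 118 and 80 bp from one of its peaks. None of these 6 peaks contained 31-base words with a second copy in the genome, and all 6 held at least 1 footprint. They stood no higher than the 91.1 percentile of the desert peaks of their library.

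Signals of the sites found in both libraries were repeated less closely in deserts than over all sites. The union of the libraries held 16883 desert sites, of which 9036 had a peak in both. After the libraries were centred on the median ratio of all shared sites, 193 desert sites (2.14%) were over 2-fold higher in replicate 2 and 114 (1.26%) over 2-fold higher in replicate 1. Over all 113527 shared sites the same shares were 0.817% and 1.06%, and at the nearer intergenic sites 1.15% and 1.62%. The log2 ratio between the libraries had an SD of 0.474 at desert sites, 0.467 at the nearer intergenic sites and 0.429 at all shared sites. The SD that counting error alone would give, if a step is 1 read, was 0.235 at desert sites, 0.196 at nearer ones and 0.184 at all. Among the strongest of 3 classes of equal number by mean signal, the SD was 0.541 at 1085 desert sites and 0.435 at all sites. Across the 9036 sites, all read from the same 2 libraries and so not independent, the log10 signals had a Pearson's r of 0.884 and a Spearman's rho of 0.856. Desert sites were on the median 0.05 higher in replicate 2 on the centred log2 scale, after a shift of 0.25 from the centring.

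**Figure D3:**
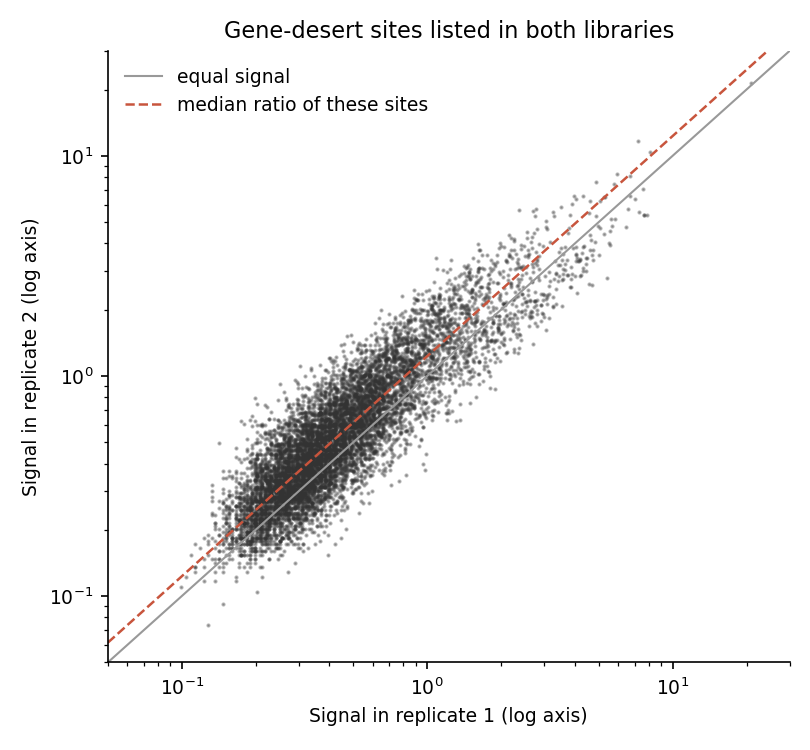
Signal of the 9036 desert sites with a peak in both libraries, replicate 1 on the x axis and replicate 2 on the y axis, both on log axes; each point is a site, the solid line is equal signal and the dashed line the median ratio of these sites. Sites lie around the dashed line over the whole range, with an SD of 0.474 in log2 ratio.

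Sites with the CTCF word were lower in replicate 2. The median of the 241 desert sites with that word was 1.01 in replicate 1 and 0.903 in the other library, and their median centred log2 ratio was −0.49 (quartiles −0.74 and −0.22), 0.712-fold. The ratio was below 0 at 88.0% of them, while desert sites without the word had a median of 0.06. The 1959 nearer intergenic sites with the CTCF word had a median of −0.52. Sites with the AP-1 word were on the median 0.16 higher in replicate 2 (1146 sites) and those with the word of RFX, a factor family of ciliated cells and neurons, 0.21 higher (46 sites). The E-box sites had 0.08 (2621 sites) and homeobox sites −0.05 (461 sites). The labels name 3 males for one library and 1 for the other. The part of that, or of library preparation, in these ratios was not tested.

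Desert peaks held the words of proneural and AP-1 factors slightly more often than nearer intergenic peaks, and the CTCF word less often, but were close to the distant peaks inside genes. In that class the E-box word was in 26.6% and 28.0% of windows, the AP-1 word in 12.3% and 12.2%, the CTCF word in 2.33% and 2.01% and the SP/KLF word in 0.397% and 0.403%. The proneural E-box CAGATG, bound by basic helix-loop-helix factors such as the Neurod and Neurog proteins, was in 27.8% of the 200-bp windows on desert peaks in each library. It was in 24.3% and 25.1% of the windows on nearer peaks, and in 14.4% and 14.3% of windows 1 kb to either side of the desert peaks. The AP-1 word TGANTCA, bound by Fos and Jun proteins, was in 11.8% and 12.7% of desert windows, 11.1% and 11.9% of nearer windows and 6.56% of the desert flanks in each library. The CTCF word was in 2.16% (1.92 to 2.43) and 1.88% (1.67 to 2.13) of desert windows against 5.68% and 5.20% of nearer ones, and in 0.0880% and 0.0588% of the desert flanks. CTCF words were also fewer than in nearer peaks within classes of like signal. In signal class 9 they were in 11.3% and 6.33% of desert peaks against 17.2% and 15.5% of nearer peaks, and in class 10 in 25.3% and 13.2% against 28.1% and 18%. Words rich in CpG were rarer than in the nearer class as well, with the SP/KLF word in 0.408% and 0.434% against 1.11% and 1.15%, and the NRF1 word GCGCNTGCGC in 0.104% and 0.0883% against 0.392% and 0.368%. The NFI word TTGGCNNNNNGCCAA, preferred by the nuclear factor I proteins of glia and neurons, was in 0.224% and 0.235% of desert windows, 0.138% and 0.145% of nearer ones and 0.0320% and 0.0294% of the flanks. The RFX word GTTGCCNNGGNAAC was in 0.416% and 0.449% of desert windows and 0.0120% and 0.0221% of the flanks. It was not more frequent than in the nearer class, with 0.511% of windows in replicate 1 and 196 of 38625 in replicate 2. Several AT-rich words were less frequent in desert windows than in their flanks. The homeobox word TAATTA was in 5.50% and 4.81% of desert windows but in 8.44% and 8.35% of their flanks, the FOX word TGTTTAC in 2.78% and 2.47% against 3.47% and 3.52%, and the GATA word AGATAAG in 2.09% and 2.13% against 3.04% and 2.94%. The AT-rich POU octamer ATGCAAAT was not among them, with 2.34% and 2.27% against 1.72% and 1.70%, nor was the MEF2 word, with 0.912% and 0.868% against 0.588% and 0.574%. GC content moves with these counts: desert peaks had 47.3% and 47.4% GC, the nearer peaks 50.2% and 50.3%, and the known desert bases 38.7%. Its part in the word counts was not tested. All words were read on both strands, and a match is a description of letters only. A window counted only if it matched the whole word, 12 letters for CTCF. Binding sites that differ from the word are missed.

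**Figure D4:**
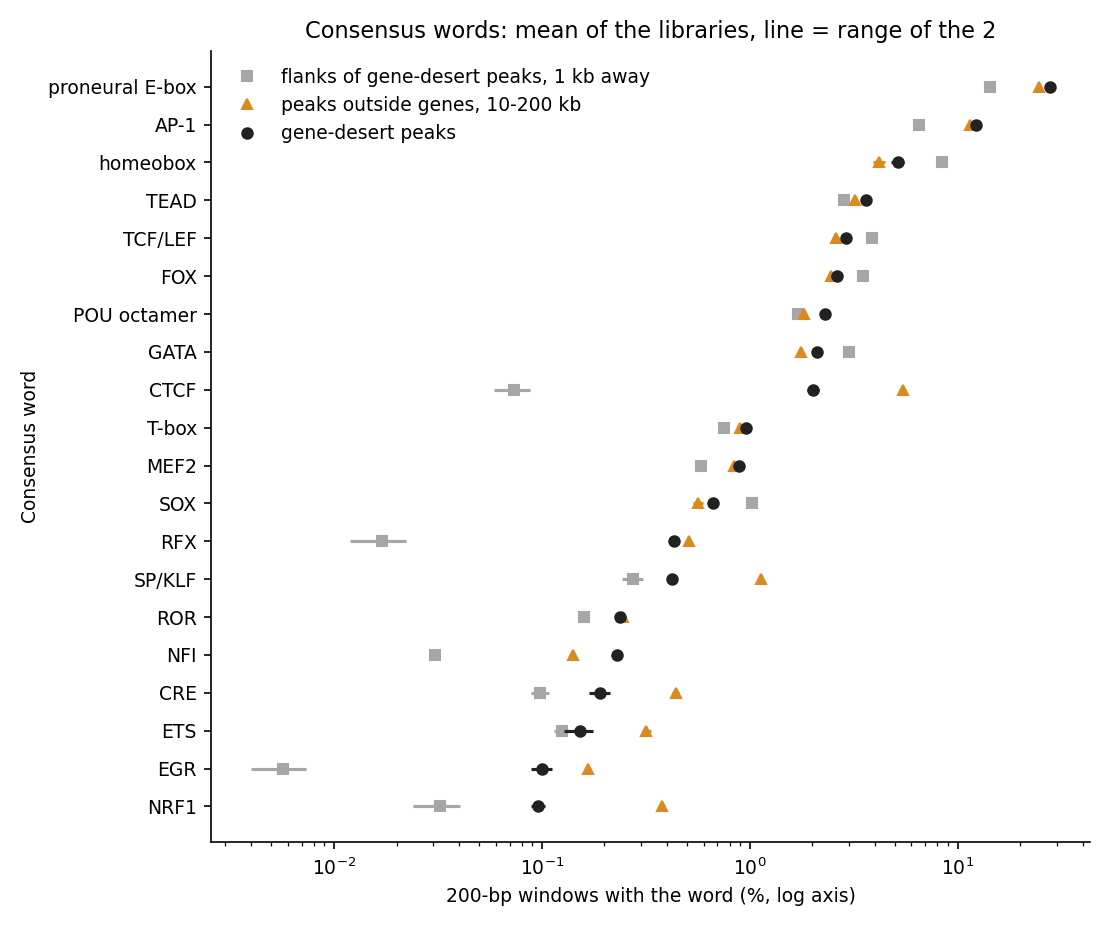
Percent of 200-bp windows that hold a consensus word (x axis, log), by word (y axis; 20 of 22, without the rare DR1 and REST words), for desert peaks, for peaks outside genes 10 to 200 kb from a start and for windows 1 kb to either side of desert peaks; points are means of the 2 libraries and lines their range. The CTCF word stands at 2.16% and 1.88% in desert peaks, below the nearer peaks and above the flanks.

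Words differed in how often a footprint covered them. Footprints took 9.55% and 9.44% of the bases of desert windows. They covered at least 50% of the word at 84.4% (79.6 to 88.3) and 75.8% (70.2 to 80.6) of CTCF words, 71.4% and 59.4% of the 28 and 32 NFI words, and 60.4% and 58.1% of the 53 and 62 RFX words. They did so at 22.6% and 20.6% of E-boxes, and at 8.74% and 9.44% of AP-1 words, close to the share of all bases. For the homeobox word the values were 4.88% and 4.27%, and for the FOX word 2.27% and 2.04%, below it. Desert peaks with the CTCF word were stronger, at a median signal of 0.916 against 0.322 without it in replicate 1 and of 0.802 against 0.369 in replicate 2, and 88.9% and 94.5% of them were shared. The RFX word went with 0.474 and 0.584, and the AP-1 word with 0.327 and 0.375, the same as peaks without it.

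Part of the desert peaks lay at transcripts that do not code for protein. Within 1 kb of a non-coding start there were 556 peaks (4.45%) in replicate 1 and 559 (4.11%) in replicate 2, while 1.75% of the desert bases are that close to one. The share of peaks at such a start was 6.52% and 6.28% in the nearer intergenic class. In distant peaks inside genes it was 0.844% and 0.984%. Desert peaks were thus at such starts less often than nearer peaks and more often than distant peaks inside genes. Of the desert peaks at such starts, 288 and 292 were at long intergenic RNAs, with a median signal of 0.436 and 0.504. Another 34 and 33 were at microRNA genes, with 0.450 and 0.633. The 69 and 79 peaks at processed pseudogenes were lower, at 0.242 and 0.276. A further group was at variable gene segments of immunoglobulins (22 and 24 peaks, median 0.206 in both libraries) and of T cell receptors (18 and 16 peaks), which the annotation does not type as protein-coding, so their loci count as deserts here. Long non-coding genes covered 9.05% of the desert bases and 13.5% and 13.4% of the desert peaks. They covered 14.7% and 14.4% of the nearer peaks, 9.17% and 9.03% of all peaks and 3.52% and 3.58% of distant peaks inside genes. Repeats made up less of the peaks than of the deserts. The repeat-masked share of a desert peak was on average 10.2% and 11.2%, while 39.6% of all desert bases were masked. Nearer intergenic peaks had a similar average, 10.3% and 10.4%. Of the peaks, 5.06% and 5.71% had over 10% of their 31-base words at more than 1 place in the genome, where reads cannot be placed with certainty, close to the 5.31% and 5.29% of the nearer class.

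The strongest desert sites were of several kinds. Ranked over both libraries, the first, at chr8:20122141-20122300 near Gm31371, had a signal of 20.9 and 21.4, held the CTCF word, and had 80.0% of its 31-base words at more than 1 place in the genome. The second and the fifth adjoin each other on chromosome 1 and lie 92 and 302 bp from the start of the long intergenic RNA Gm26901, with signals of 8.08 and 10.4 and of 6.73 and 8.10. The third, 237 kb from Myt1l, a zinc finger gene of neurons, had 7.25 and 11.7. The sixth, 2 bp from the start of the long intergenic RNA Gm34354 and 274 kb from Ntrk2, the receptor gene of brain-derived neurotrophic factor, had 5.94 and 8.26. The seventh lay 374 kb from the anion exchanger gene Slc4a3 with 6.73 and 6.59, the eighth 220 kb from Reep3 with 5.79 and 7.46, and the ninth 221 kb from Rragc, a regulator of the mTORC1 pathway, with 7.04 and 6.38. The tenth had 7.63 and 5.41, and the eleventh, 2140 kb from the cadherin gene Cdh20, had 7.86 and 5.39, with 21.5% and 46.9% of their words repeated. The twelfth, 257 kb from Pik3c3, had 7.28 and 5.54 and held the CTCF word and an E-box. After centring, the largest difference among the sites named here was 0.576-fold, at the site near Cdh20. Of the strongest 100 shared sites, 22 held the CTCF word (2.67% of all 9036 did), 12 lay at a non-coding start (4.52%), 23 held an E-box (29.0%) and 9 an AP-1 word (12.7%).

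Part of the shared desert sites lay in clusters. With neighbouring centres at most 10 kb apart and at least 3 sites found in both libraries, there were 572 clusters, which took 2087 of the 9036 sites, 23.1%. No such share is given for other classes of peaks, so it has no reference. Most clusters were small: 350 had 3 sites, 86 had 5 or more and 2 had 10 or more. Sites that adjoin without overlap were counted apart. In the fifth cluster below, 1 site ends at 113172140 and the next starts at 113172141. Clustered sites were stronger, with a median of 0.502 and 0.645 against 0.365 and 0.461 outside clusters. The largest cluster, chr10:14193661-14216720, held 12 sites in 23.1 kb, 227 to 249 kb from Hivep2, a zinc finger transcription factor gene linked to brain development. Its signals ran from 0.384 to 3.79 in replicate 1 and from 0.571 to 5.85 in replicate 2, and all 12 sites had footprints in both libraries. The strongest were those at 14210521 to 14210700 (3.50 and 5.85) and at 14212041 to 14212220 (3.79 and 4.72), with a weaker site between them (1.30 and 2.13). The second cluster, chr9:41579401-41590460, held 10 sites in 11.1 kb, all within the non-coding gene 3110039I08Rik and 3 of them nearest to the start of the microRNA gene Mir125b-1. The nearest protein-coding start, that of the sorting receptor gene Sorl1, was 384 to 395 kb away. The third, 9 sites in 41.2 kb, had 8 sites in the long intergenic RNA 2610035D17Rik. It lay between Sox9, nearest to 2 of the sites at 383 and 390 kb, and the zinc transporter gene Slc39a11, nearest to the other 7 at 360 to 389 kb. Its strongest site, 13 bp from a start of that RNA, had 4.86 and 5.31. The fourth, 9 sites in 31.7 kb, had 7 sites nearest to the receptor phosphatase gene Ptpru, 382 to 404 kb away, and 2 nearest to the matrilin gene Matn1, 411 and 412 kb away. The fifth, 8 sites in 24.7 kb, lay 476 to 500 kb from Pdcd6ip. In it, 7 of the 8 sites were higher in replicate 2 before centring, the strongest with 1.97 and 4.02. Before centring, shared desert sites in general were also higher in replicate 2, by a median log2 ratio of 0.30.

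The deserts differed widely in density, and the libraries ranked them alike. The rule gives 862 unbroken stretches with a median length of 359 kb, of which 845 hold known bases. There was no peak in 69 of these in either library. Among the 318 stretches with at least 0.5 Mb of known bases, the median density was 20.5 and 21.9 peaks per Mb, and the central 80% ran from 9.51 to 48.2 in replicate 1 and from 9.99 to 52.6 in replicate 2. Over these 318 stretches, which share the libraries and the genome annotation, Spearman's rho between the libraries was 0.946. The mean density went with GC content (rho 0.727) and against the repeat-masked share (rho −0.781), as descriptions. Of 4 classes by GC content, in the lowest (mean 36.8%) there were 12.6 and 13.9 peaks per Mb, and in the highest (41.8%) 42.8 and 46.5.

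**Figure D5:**
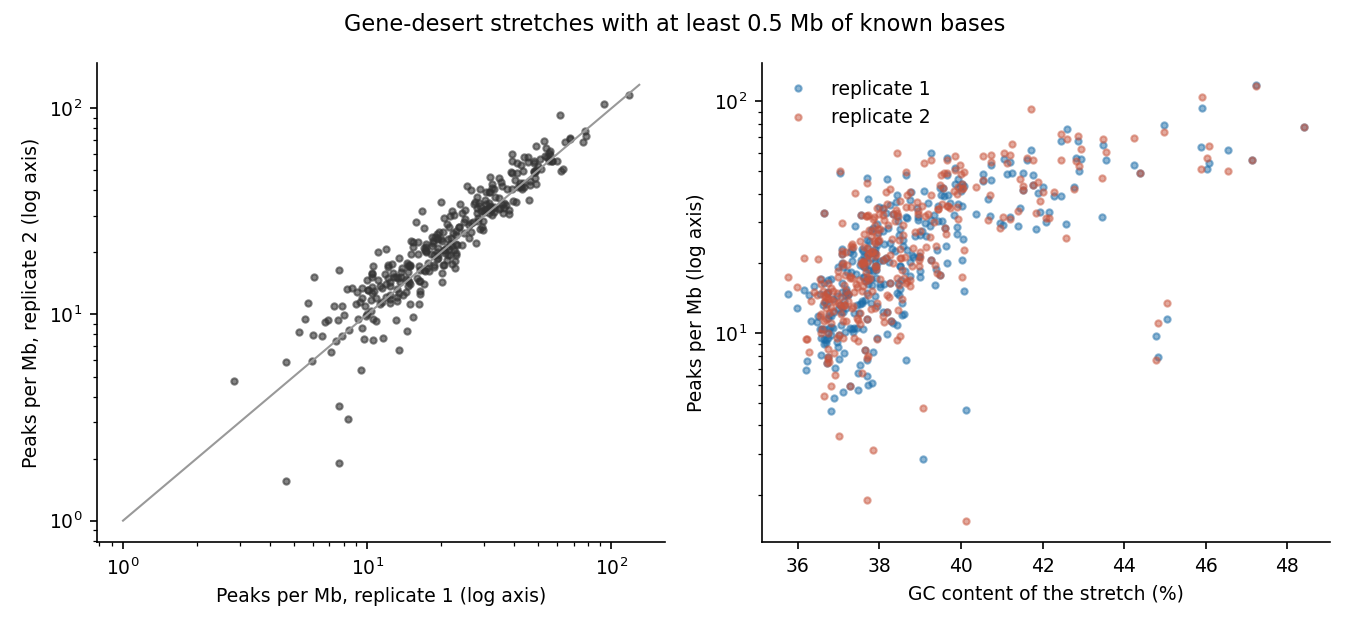
Peaks per Mb in the 318 desert stretches with at least 0.5 Mb of known bases: replicate 2 against replicate 1 (left, both axes log, the line is equality) and both libraries against the GC content of the stretch in percent (right, y axis log). The densest stretch has 118 and 116 peaks per Mb at 47.2% GC, and the 5 sparsest named in the text lie at 36.8% to 40.1%.

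The stretch with the most peaks was that between Celf4, an RNA-binding protein gene of neurons, and Pik3c3, a lipid kinase gene of autophagy, with 113 and 141 peaks in 4.12 Mb. It was followed by the stretch between Zeb2 and Acvr2a (71 and 88 in 3.30 Mb) and that between Arpp21 and Pdcd6ip (63 and 95 in 1.02 Mb). The latter also differed most between the libraries among the named dense stretches, with 61.7 and 93.0 peaks per Mb. Those between Klhl29 and Apob held 76 and 81 peaks, between Khdrbs3 and Fam135b 74 and 69, between Slc4a3 and Epha4 65 and 78, between Got2 and Cdh8 66 and 73, and between Auts2 and Castor2 65 and 72. The densest, between Rps24 and Zmiz1 on chromosome 14, had 118 and 116 peaks per Mb and 8 long non-coding genes. Others were the stretches between Kazn and Prdm2 (93.5 and 105), Nphp4 and Ajap1 (77.7 in both) and Cd83 and Jarid2 (79.0 and 73.5). All 5 of the densest had between 41.7% and 48.4% GC. At the sparse end, a stretch of 2.10 Mb between Adam6a and Zfp386 on chromosome 12 held 6 and 10 peaks. It contains 159 annotated immunoglobulin segments, that is, the variable part of the heavy chain locus, which is used in B cells. The stretch between Gm12887 and 9530002B09Rik held 3 and 1 peaks in 0.644 Mb, 56.2% of it repeat-masked, and that between 9130204L05Rik and Pglyrp3 held 4 and 1. Between Cox7c and Edil3 there were 11 and 14 peaks in 2.37 Mb, and between Ankrd7 and Kcnd2 15 and 7 in 1.95 Mb.

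The genes with the most desert peaks nearest to them, by count and not by density, included several of transcription factors and cell adhesion. A desert peak was nearest to 1213 protein-coding genes in both libraries, of 1480 that lie at the edge of a desert. Pik3c3 had 63 and 78 such peaks and Celf4 59 and 72. Adgrl2, an adhesion receptor gene of synapses, had 59 and 61, and Tbl1xr1, a gene of co-repressor complexes, 49 and 53. Myc had 45 and 51, and Sox9, a transcription factor gene of progenitors and astrocytes, 44 and 52. The cadherin genes Cdh11 and Cdh8 had 44 and 48 and 39 and 53, Flrt2, a guidance and adhesion gene, 42 and 45, and Tenm3, a teneurin of synaptic wiring, 44 and 43. Zfp608 had 47 in both libraries, and Zeb2, a transcription factor gene of interneuron migration, 37 and 49. Pdcd6ip had 39 and 61, Khdrbs3 53 and 42, and the metabolic enzyme gene Got2 44 and 46. The amount of desert differs between genes: 0.511 Mb is nearest to Pdcd6ip, 0.850 Mb to Sox9 and 2.85 Mb to Cdh8. That gives 76.4 and 119, 51.8 and 61.2, and 13.7 and 18.6 peaks per Mb. Cdh8, Flrt2 (15.1 and 16.2), Tenm3 (20.6 and 20.2) and Cdh11 (23.5 and 25.7) were below the 24.6 and 26.7 of all deserts. Adgrl2 was above, with 33.5 and 34.6.

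Lists of genes differed both in how often they border deserts and in how dense those deserts were. Of 75 cortical transcription factor genes 45 lie at a desert edge (60.0%, against 7.12% of all protein-coding genes). Of the 45, 44 had desert peaks nearest to them in both libraries (97.8%), with a median of 13 and 14. Over all 1480 edge genes 82.0% did, with a median of 6 in each library. The listed factors also had more desert nearest to them, a median of 0.424 Mb against 0.190 Mb for all edge genes. The deserts nearest to the listed factors held 34.1 and 39.0 peaks per Mb (36.6 ± 3.41, SD, n = 2), above the 24.6 and 26.7 of all deserts. Pou3f3, a gene of upper-layer neurons, had 30 and 38 peaks, and Nfia, with 0.0242 Mb of desert, had none. Of 85 adhesion and axon guidance genes 71 lie at an edge (83.5%), 64 of them with desert peaks in both libraries (90.1%). Their deserts are long, with a median of 0.893 Mb per gene, and were thinly filled, with 14.1 and 16.5 peaks per Mb (15.3 ± 1.63). Of 74 ion channel and receptor genes 46 lie at an edge (62.2%). Of these, 36 had desert peaks in both libraries (78.3%, near the 82.0% of all edge genes), at 21.8 and 24.9 peaks per Mb. Galr1, a galanin receptor gene, had 33 and 46, and the potassium channel genes Kcna4 and Kcnj3 had 22 and 28 and 20 and 23. Of 1455 olfactory and vomeronasal receptor genes, which lie in dense arrays, 10 lie at an edge (0.687%). Of these, 3, with Olfr1507 (11 and 10 peaks) first, had desert peaks in both libraries. Gria4, with 0.0511 Mb of desert, and Olfr693, with 0.0316 Mb, had none. Cntnap5c, Nlgn1, Gabrg3 and Vmn1r2 lie at an edge but have no desert bases nearest to them, so no peak was possible. Such genes are counted in the shares of edge genes with desert peaks, which were not corrected for this. No test of a list was made, and these lists were not chosen independently of earlier results.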

How the data were processed

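DNase-seq peaks, footprints and cleavage-rate intervals of 2 libraries (1 group) were analysed. Per the file headers and notes, the authors made each file from that library's own mm10 alignments, without pooling. For the aligner, the callers and the definition of the signal: not given in the sources used here. The deposited peak lists give a signal per peak, the footprint files a score of 0.01 in every row (not used), and the interval files a q-value, listed only under 0.05. The more inclusive of 2 deposited peak lists was used and the stricter one as an alternative.

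Peaks were placed by their centre against GENCODE M21 (all transcript starts of protein-coding genes). Sequence and repeat masking came from RefSeq GRCm38.p6. Sharing and footprints needed an overlap of 1 bp. Clusters had at least 3 shared sites with gaps of at most 10 kb. Words were read on both strands in 200-bp windows, the CTCF and MEF2 words by their standard consensus. Genomic copies were counted for 31-base words. Ratios between libraries were centred on the median of all shared sites.

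The text names the 12 shared sites with the highest mean rank, the 3 strongest private peaks per library, the 8 desert stretches with the most peaks and the 5 densest and sparsest of at least 0.5 Mb, the 5 largest clusters, the 15 genes nearest to the most peaks, and up to 3 per list with the most and 2 with none. Sequences were limited to sites outside chromosome 18 with at most 10% repeated words. One of the 12 sites is not reported here. Members and lists were chosen with earlier results of these data known. The ratios by word were added after the values were seen.

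Alternatives were the stricter list, gene 5′ ends only, distances of 100 and 500 kb, each library alone, no multicopy peaks, and other overlaps, gaps, windows, folds and centring. The functions were tested on simulated data. Python 3.11.15, NumPy 2.4.6, pandas 2.3.3, SciPy 1.17.1, numba 0.67.0 and matplotlib 3.10.9 were used.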

Additional observations from a re-analysis of the deposited data

How the results depend on the processing

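The stricter peak list gave 6106 desert peaks on average in place of 13048, 6.90% of peaks in place of 8.76%, 12 per Mb in place of 25.6, a median signal of 0.589 in place of 0.351, 75.2% shared in place of 70.0%, 91.7% with a footprint in place of 72.8%, 154 clusters in place of 572 and the CTCF word in 3.46% of windows in place of 2.02%. With a distance of 100 kb there were 21972 peaks, 14.7% of all, 30.7 per Mb, with a median signal of 0.386, 75.8% with a footprint and 1150 clusters. With 500 kb there were 3868 peaks, 2.59% of all, 17.2 per Mb, with 0.285, 66.2% and 85. Gene 5′ ends alone gave a share of 9.74% of peaks, and leaving out multicopy peaks gave 8.28%. Sharing was 59.9% when 50% of each peak had to overlap. Clusters numbered 370 with a gap of 5 kb and 861 with 20 kb, and 1014 to 1167 when sites of a single library were used, which need not be shared. Without centring 7.39% of desert sites differed over 2-fold in place of 3.40%, and 22.3% differed over 1.5-fold. Of 144 values for single words and genes, 102 stayed within the spread between libraries or, for counts, within 1.5 times, and 42 moved. For words, a library taken alone cannot move by this measure, since the SD over 2 libraries is never below its distance from their mean. Those values were thus among the 102 in advance and say nothing of stability. All 15 gene counts moved under the stricter list, and 27 of 84 values for words moved. The alternatives for genes and each library alone for words were chosen after seeing the data. The number of reads per library, and with it the smallest peak that could be found, is not known. No paired analysis was possible because there is 1 group.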

Other observations

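On the sex chromosomes, which are not part of the counts above, 322 and 375 peaks on X met the same distance rule. Their median signal was 0.189 and 0.209 against 0.327 and 0.375 on chromosomes 1 to 19. Male cells carry a single X, and the part of copy number in this difference was not tested. On Y 14 and 5 peaks met it, with 0.0805 and 0.0860. Among chromosomes 1 to 19 the mean density of desert peaks ran from 19.8 ± 0.620 per Mb on chromosome 6 to 33.6 ± 3.40 on chromosome 9 (SD, n = 2 libraries).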
